A study of Sus scrofa with 36 samples.

Results

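The genes described here are 7 genes of cholesterol synthesis and its control, namely HMGCS1, SQLE, FDFT1, LSS, DHCR7, INSIG1 and SREBF2. They were taken as a named list, and 7 of 7 were found among the 20683 genes of the deposited tables, in all 11 groups of pig cells. Animal cells build cholesterol from acetyl-CoA. The early steps give mevalonate and then farnesyl diphosphate, and the later steps join that product into squalene, close it into a ring and trim the ring to cholesterol. SREBF2 encodes SREBP2, the membrane-bound transcription factor that switches most of these genes on when sterols run low. INSIG1 encodes an endoplasmic reticulum protein that holds SREBP2 and its escort SCAP back when sterols are plentiful, and is itself an SREBP target. HMGCS1 is the cytosolic HMG-CoA synthase, an enzyme of the early steps. FDFT1 is squalene synthase, the first step committed to sterols. SQLE oxidises squalene, LSS closes the oxidised squalene into lanosterol, and DHCR7 catalyses the last reduction on one of the routes to cholesterol. Dividing and differentiating cells use cholesterol for new membrane and, in the embryo, for attachment to hedgehog proteins.

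The study measured bulk RNA-seq in 36 libraries of pig (Sus scrofa) cells, and its title calls its induced pluripotent stem cells (iPSCs) transgene-free. Undifferentiated clonal lines were clone 1 (labelled PiPS-EP1 minusPD c4 p11, n = 3), clone 2 (PiPS-EP5 minusPD minusA83 c12 p10, n = 4) and clone 3 (PiPS-EP5 minusPD minusA83 c18 p15, n = 4), set against pig fibroblasts (n = 4). Clone 8 was followed through differentiation with 3 libraries per group. Its groups were day 0 (undifferentiated, MEF feeder cells removed), day 1 (primitive streak or mesendoderm, in E8A100ch3), day 2 (presomitic mesoderm, PSM, in S1LDN) and day 3 (somite, in S2LDN), and lineage cells labelled endothelial on day 6, beating cardiomyocytes on day 9 and neuro progenitors on day 24. Each line is 1 clone, so all differentiated groups stand for a single line. Levels are given in TPM, a relative abundance that allows for gene length. Fold changes are on the log2 scale with their standard error (SE), from edgeR's quasi-likelihood test on the deposited counts, and a gene was called at an adjusted p under 0.05 (Benjamini-Hochberg over all genes tested in the comparison). Whether libraries of 1 group are separate cultures is not labelled. If they are not, a p-value reflects technical spread alone. In bulk RNA, fewer cells of a type and less RNA per cell cannot be told apart.

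Totals ran from 1845333 to 9727315 counts in the 21 libraries of clone 8, from 24314241 to 69879325 in the 11 libraries of clones 1 to 3 and from 6877298 to 36738189 in the fibroblasts. The library labelled cardiomyocyte replicate 2 went against its label. Its 7 cardiac markers summed to 42.0 TPM, against 10931 and 10086 TPM in the other cardiomyocyte libraries, with NKX2-5 at 0, and its 7 neural markers summed to 3652 TPM. The library labelled neural replicate 1 held 11146 TPM of cardiac and 94.8 TPM of neural markers, with SOX1 and HES5 at 0, against 4159 and 4055 TPM of neural markers in neural replicates 2 and 3. For every comparison within clone 8 the calls among the 7 genes are therefore given with all libraries and without both. Some single values, such as those of SREBF2 on days 1 and 3, come from the fit with all libraries alone. Groups that hold neither library are also affected, because one spread was fitted over the 21 libraries of clone 8. Glial markers moved with the neural ones, at 3843 and 3292 TPM in neural replicates 2 and 3 against 55.3 to 67.2 TPM on day 0. Most of that sum was FABP7, which neural progenitors also carry, and GFAP was at 1.12 and 1.35 TPM. Markers of the other labels were found where they belong, with mesendoderm markers at 701 to 1182 TPM on day 1, presomitic mesoderm markers at 149 to 232 TPM on day 2 and endothelial markers at 573 to 642 TPM in endothelial cells. The somite markers did not set day 3 apart, at 23.9 to 32.2 TPM on day 3 against 29.5 to 37.3 TPM in endothelial cells. Pluripotency markers were still at 659 to 789 TPM in the endothelial libraries, against 1944 to 2145 TPM on day 0. Fibroblast libraries 1 and 2 were deeper than 3 and 4 and are also tested apart. HMGCS1 counts were not whole, to a tolerance of 0.005 counts, in 36 of 36 libraries and those of SQLE in 33, which is how RSEM writes reads divided between loci, so the levels of both carry that uncertainty.

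On Sscrofa11.1, RefSeq places HMGCS1 on chromosome 16 (27936225 to 27957261), FDFT1 on chromosome 14 (14976259 to 15010701), SQLE on chromosome 4 (14669789 to 14700152), DHCR7 on chromosome 2 (2377352 to 2391846), INSIG1 on chromosome 18 (2885494 to 2898758) and SREBF2 on chromosome 5 (6719484 to 6784724). LSS lies on a sequence with no chromosome assigned. All 7 are protein-coding genes, and no pair of the placed genes shares a chromosome.

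Across the 11 groups the summed level of the 7 genes was lowest in fibroblasts, at 357 ± 77.1 TPM (SD, n = 4), and with all libraries the highest mean was on day 2, at 1706 ± 189 TPM (n = 3). In the neural group it was 1581 ± 728 TPM, with 2113 and 1880 TPM in replicates 2 and 3, both above the highest day 2 library (1826 TPM), and 751 TPM in the library labelled replicate 1. Without that library the neural group therefore stood above day 2. Cardiomyocytes had 930 ± 467 TPM, with 623 and 699 TPM in replicates 1 and 3 and 1467 TPM in the library labelled replicate 2. The sum stood at 1083 ± 26.2 TPM on day 1, 1017 ± 196 TPM in endothelial cells, 685 ± 12.7 TPM on day 3 and 624 ± 32.9 TPM on day 0. In clones 1 to 3 the sum was 604 ± 44.8, 645 ± 68.6 and 650 ± 92.7 TPM. HMGCS1 made up the largest share of the sum in every group except the fibroblasts, at 61.2% on day 2 and 13.5% in fibroblasts. HMGCS1 also spanned the widest range, with group means between 50.5 ± 26.4 TPM in fibroblasts and 1046 ± 159 TPM on day 2, a span of 4.49 between group means of log2(TPM + 1). Day 2 stood above the next group, neural (667 ± 252 TPM), by more than the combined SDs, and from neural down to clone 1 (211 ± 27.9 TPM) no group differed from the next by more than that spread. LSS and DHCR7 were the scarcest, with group means between 6.06 ± 0.671 and 29.9 ± 12.2 TPM for LSS and between 8.31 ± 5.20 and 30.3 ± 4.72 TPM for DHCR7. For DHCR7 the order began with clone 2, clone 3 and day 0 and ended with the fibroblasts and the cardiomyocytes, and down to the fibroblasts no group stood apart from its neighbour by more than the combined SDs. SREBF2 and FDFT1 were lowest in fibroblasts (35.9 ± 6.97 and 58.1 ± 4.27 TPM). INSIG1 was lowest on day 0 (38.2 ± 3.51 TPM), beside clone 2 (41.8 ± 2.48 TPM), whose libraries overlapped it. Leaving out the libraries labelled cardiomyocyte replicate 2 and neural replicate 1, neural held the highest mean of SQLE, FDFT1, LSS, INSIG1 and SREBF2, and cardiomyocyte held the lowest of SQLE, LSS, DHCR7 and SREBF2. The log2 span then widened to 3.67 for SREBF2, against 1.58 with all libraries, and to 3.10 for LSS, against 2.06.

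**Figure D1:**
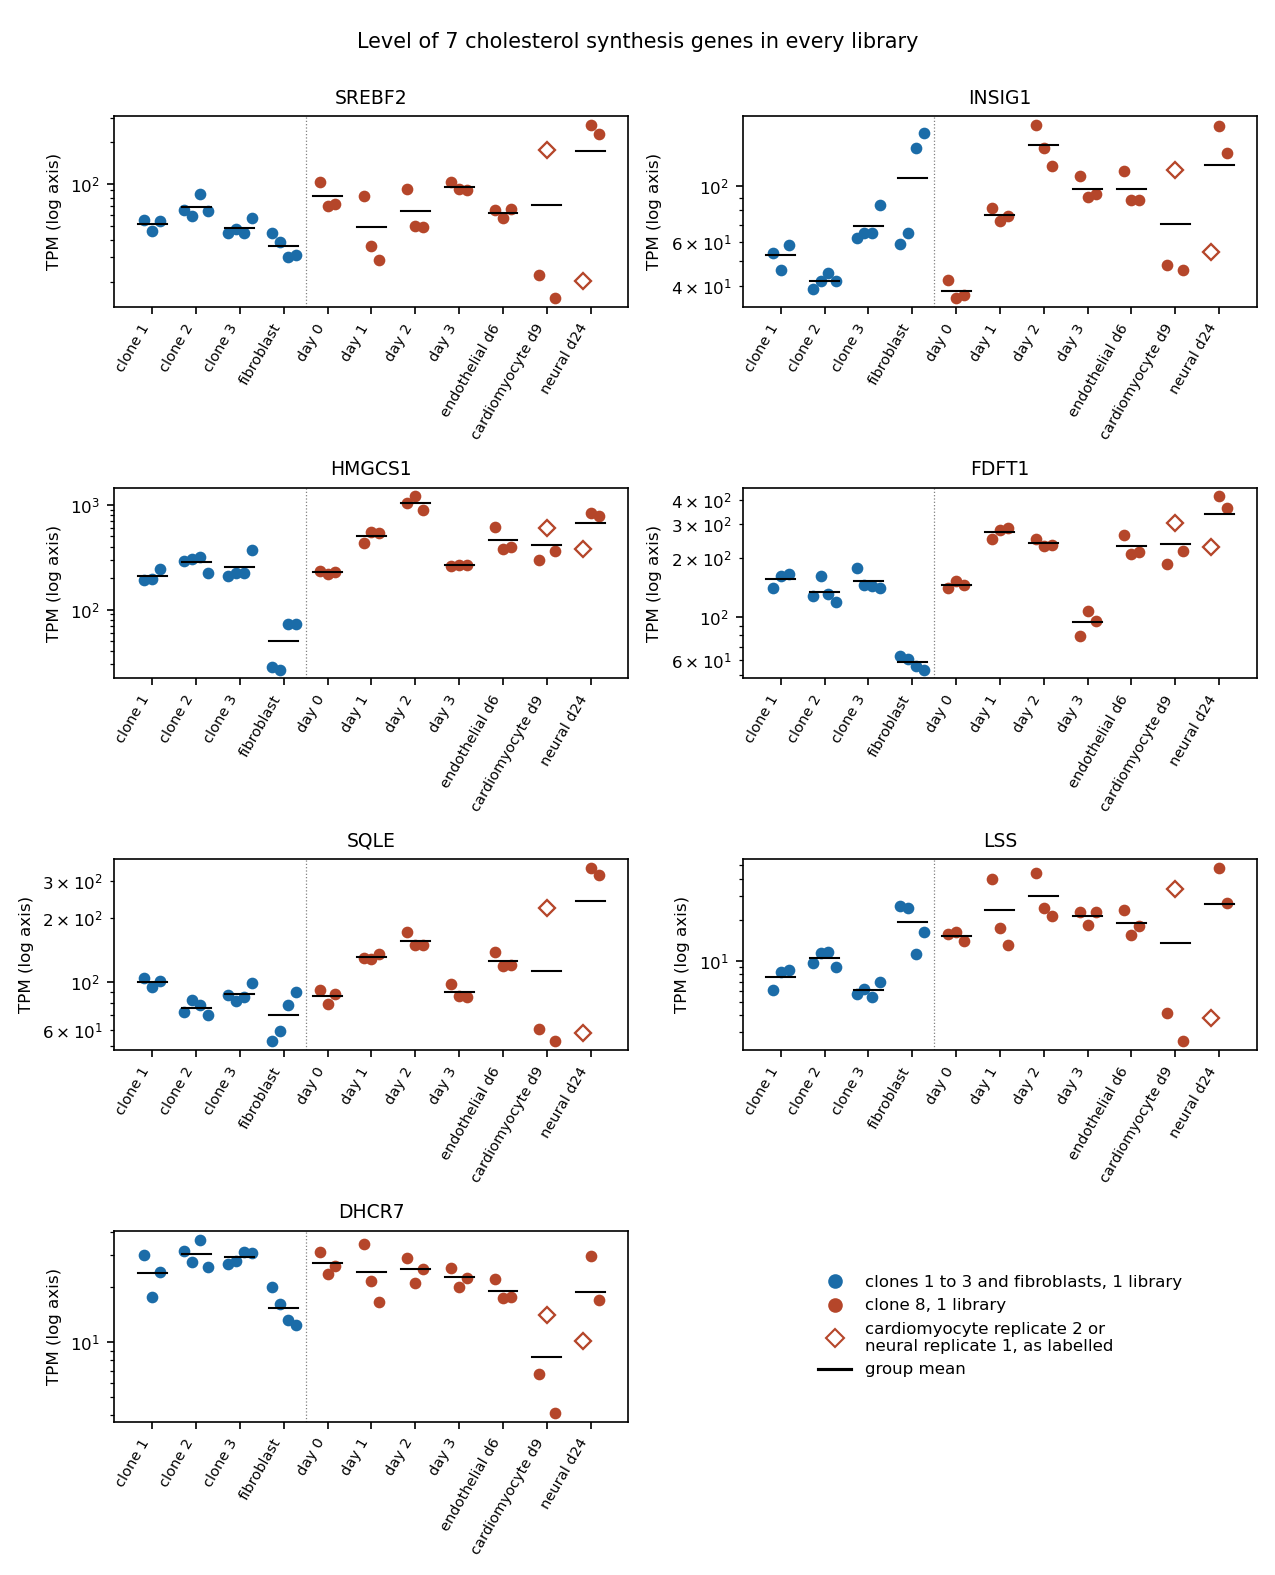
TPM of each of the 7 genes (log axis) in each of the 36 libraries, by group, with black lines at the group means; d6, d9 and d24 are days. Open diamonds mark the libraries labelled cardiomyocyte replicate 2 and neural replicate 1. HMGCS1 peaks on day 2, at 889 to 1208 TPM, and SREBF2 in the solid neural points stands at 229 and 267 TPM.

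The comparison of clones 1 to 3 with fibroblasts asked how undifferentiated iPSC lines differ from the somatic cells. All 7 genes passed the test, 5 higher and 2 lower in the clones, in a comparison in which 74.6% of the 14660 genes tested were called. Being called therefore sets these genes little apart from the rest. Their median log2 fold change was 0.46, beside 0.11 for all genes tested. HMGCS1 and FDFT1, in the upper part of the pathway, were the most raised, while LSS and INSIG1 were lower.

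HMGCS1 ranged between 192 and 369 TPM in the 11 clone libraries (median 225 TPM), against 28.5, 26.8, 73.3 and 73.6 TPM in the 4 fibroblast libraries. Every clone library lay above every fibroblast library, a 4.24-fold difference (log2 2.08 ± 0.22, adjusted p = 1.82e-07). FDFT1 stood between 118 and 177 TPM in the clones (median 143 TPM), against 62.7, 60.6, 55.9 and 53.4 TPM in fibroblasts, again with no overlap (1.38 ± 0.12, adjusted p = 7.57e-09). LSS went the other way, at 5.39 to 11.6 TPM in the clones (median 8.29 TPM) and 25.1, 24.2, 11.3 and 16.1 TPM in fibroblasts (-1.48 ± 0.20, adjusted p = 2.28e-06). One shallow fibroblast library reached into the range of the clones. INSIG1 lay between 38.7 and 84.2 TPM in the clones (median 54.1 TPM), against 58.6, 65.2, 142 and 164 TPM in fibroblasts (-1.07 ± 0.17, adjusted p = 1.67e-05). The deep fibroblast libraries fell inside the range of the clones and the shallow ones far above it. DHCR7 was higher in the clones, at 17.8 to 36.5 TPM (median 28.0 TPM) against 19.9, 16.3, 13.3 and 12.5 TPM (0.68 ± 0.18, adjusted p = 0.00295). SREBF2 was also higher, at 44.4 to 84.8 TPM (median 54.8 TPM) against 44.8, 38.2, 30.0 and 30.8 TPM (0.46 ± 0.15, adjusted p = 0.0114). SQLE differed least, at 70.1 to 105 TPM (median 85.4 TPM) against 52.8, 58.9, 78.0 and 90.5 TPM (0.25 ± 0.10, adjusted p = 0.0378). For DHCR7, SREBF2 and SQLE the highest fibroblast library lay above the lowest clone library.

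The fibroblast libraries fell into 2 pairs, over all genes as well as for these, and the size of several differences depended on the pair. Chi-square over the counted genes, divided by its degrees of freedom, was 112 to 142 between libraries of different pairs. It was 26.0 between replicates 1 and 2 and 6.39 between replicates 3 and 4. Against replicates 1 and 2 alone, where 73.1% of genes were called, the log2 difference of HMGCS1 was 2.79 ± 0.19 and that of INSIG1 -0.41 ± 0.11. Against replicates 3 and 4 alone, where 66.4% were called, they were 1.67 ± 0.18 and -1.45 ± 0.11. FDFT1 was at 1.32 ± 0.13 and 1.57 ± 0.14 in the same pair of tests, LSS at -1.87 ± 0.13 and -0.74 ± 0.17, and DHCR7 at 0.43 ± 0.18 and 1.17 ± 0.20. SREBF2 did not pass against replicates 1 and 2 (0.20 ± 0.12, adjusted p = 0.158) and SQLE did not pass against replicates 3 and 4 (0.15 ± 0.11, adjusted p = 0.238). The SQLE call was also lost with the replicate number as a block (0.24, adjusted p = 0.0570), with RLE size factors (adjusted p = 0.123) and with DESeq2 (adjusted p = 0.0948). It was lost too without fibroblast replicate 1 (adjusted p = 0.119), fibroblast replicate 2 (0.0714), clone 2 replicate 2 (0.0561), clone 3 replicate 3 (0.0516) or clone 3 replicate 4 (0.0504).

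The rest of the pathway had calls in both directions. Of the 14 other synthesis genes tested, 4 were higher and 4 lower in the clones, with a median of 0.11. The mevalonate branch was raised at ACAT2, which makes acetoacetyl-CoA (2.76 ± 0.12), and at MVD (1.35 ± 0.17), while GGPS1, which leads farnesyl diphosphate away to geranylgeranyl diphosphate, was lower (-2.29 ± 0.19). Among later sterol steps HSD17B7 (2.57 ± 0.18) and LBR (2.19 ± 0.16) were higher and the C14 sterol reductase gene TM7SF2 was lower (-3.20 ± 0.49). Genes of SREBP control gave 1 higher and 4 lower of 8, with SREBF1, the fatty acid counterpart of SREBF2, at -2.06 ± 0.29 and SCAP at -1.25 ± 0.23. Of 10 genes of sterol uptake and transport 2 were higher and 6 lower, led by the lipoprotein receptor gene VLDLR (-5.04 ± 0.12). Fatty acid synthesis gave 4 higher and 3 lower of 10, among them ELOVL6 (3.14 ± 0.14) and the desaturase gene FADS1 (-3.71 ± 0.22). Fibroblast markers summed to 127 to 275 TPM in the clones and 15949 to 27348 TPM in the fibroblasts, and their part in these differences was not tested.

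Few of these genes passed the test between undifferentiated lines. In clone 1 against clone 2, 1 of the 7 passed, with 9.31% of genes called, and it was SQLE, at 105, 95.3 and 101 TPM in clone 1 and 72.3, 82.6, 77.9 and 70.1 TPM in clone 2 (0.62 ± 0.13, adjusted p = 0.00909). Each clone 1 library lay above each clone 2 library, and the call was lost with limma on log2(TPM + 1) (0.40, adjusted p = 0.111). In clone 1 against clone 3, where 6.7% of genes were called, none of the 7 passed by edgeR, DESeq2 or limma, and 0 had an unadjusted p under 0.05 by edgeR. In clone 2 against clone 3 the only gene called was INSIG1, with 4.22% of genes called, at 38.7, 41.8, 44.8 and 41.9 TPM in clone 2 and 62.1, 64.8, 64.7 and 84.2 TPM in clone 3 (-0.90 ± 0.21, adjusted p = 0.0208). The libraries did not overlap, but the call was lost without any of clone 2 replicates 1, 2 and 3 (adjusted p = 0.0745, 0.0629 and 0.0661) or clone 3 replicates 2, 3 and 4 (adjusted p = 0.0517, 0.0510 and 0.0573), and with limma on log2(TPM + 1) (-0.70, adjusted p = 0.136). With only these groups in the fit, 4 of the 7 were called and 18.7% of genes.

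Clone 8 on day 0 is a further undifferentiated line, and it was set against clones 1 to 3 in a fit over all 36 libraries. FDFT1 (-0.44 ± 0.13, adjusted p = 0.0190) and INSIG1 (-0.83 ± 0.20, adjusted p = 0.00449) were called lower in clone 8, with 18.3% of 14811 genes called. INSIG1 stood at 42.2, 35.7 and 36.6 TPM on day 0 against 38.7 to 84.2 TPM in the clones, and FDFT1 at 140, 153 and 146 TPM against 118 to 177 TPM, so both overlapped. In TPM the FDFT1 difference was absent (limma on log2(TPM + 1), -0.00, adjusted p = 0.998), and INSIG1 was not called either (-0.47, adjusted p = 0.228), on a scale where the median of all genes was 0.26, beside 0.05 in the count fit. The FDFT1 call was also lost without day 0 replicate 1 (-0.39, adjusted p = 0.126), 2 (-0.48, adjusted p = 0.0559) or 3 (-0.46, adjusted p = 0.0673). A fit without the libraries labelled cardiomyocyte replicate 2 and neural replicate 1 also called SQLE lower (-0.37 ± 0.10) and LSS higher (0.62 ± 0.23), with 32.4% of genes called. Liver and endoderm markers summed to 996 to 1271 TPM on day 0 and 202 to 870 TPM in the clones, and their part was not tested. The line and the library set cannot be told apart here.

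The course to somite asked how the genes follow mesoderm formation day by day. On day 1 much of the pathway rose. Of the 7 genes, 3 were called higher and none lower than on day 0, with 12.7% of 14248 genes called (5.53% higher), and their median log2 fold change was 0.84, beside -0.02 for all genes. The fit without the libraries labelled cardiomyocyte replicate 2 and neural replicate 1 called 5 of the 7 higher and none lower, with 37.4% of genes called (17.9% higher). In that fit 6 of the 7 had an unadjusted p under 0.05 by edgeR, in either direction, as did 6574 of the 14485 genes tested.

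HMGCS1 reached 435, 551 and 533 TPM on day 1 against 235, 221 and 230.2 TPM on day 0, a 2.61-fold rise (1.39 ± 0.20, adjusted p = 0.000256). FDFT1 reached 251, 278 and 286 TPM against 140, 153 and 146 TPM (1.11 ± 0.18, adjusted p = 0.000453). INSIG1 reached 81.6, 72.7 and 75.6 TPM against 42.2, 35.7 and 36.6 TPM (1.23 ± 0.22, adjusted p = 0.00130). For all of these, every day 1 library lay above every day 0 library, although INSIG1 did not pass with limma on log2(TPM + 1) (0.99, adjusted p = 0.0790). SQLE stood at 130.0, 129 and 136 TPM against 92.6, 78.8 and 88.4 TPM, with no overlap, at 0.84 ± 0.37 (adjusted p = 0.163) with all libraries and 0.83 ± 0.12 (adjusted p = 6.61e-06) without those 2. LSS stood at 39.9, 17.3 and 13.0 TPM against 15.8, 16.1 and 13.9 TPM, and the other day 1 libraries overlapped day 0. It was called without those 2 libraries (0.78 ± 0.27, adjusted p = 0.0262) and stood at 0.31 ± 0.72 when day 1 and day 2 replicate 1 were left out. SREBF2 stood at 82.4, 36.1 and 28.5 TPM against 104, 70.0 and 72.1 TPM (-0.57 ± 0.65, adjusted p = 0.639, with all libraries) and was called in neither fit. The same replicate was the high one there, and the other day 1 libraries lay below all of day 0. DHCR7 stood at 34.5, 21.6 and 16.7 TPM against 31.2, 23.6 and 26.2 TPM, with overlapping libraries and a log2 difference of 0.04 ± 0.27, which was -0.17 without those first replicates and -0.20 with limma on log2(TPM + 1).

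Other enzymes of the pathway moved the same way on day 1. Of the 14 others tested, 8 were called higher and 1 lower, with a median of 1.00. The mevalonate steps FDPS (farnesyl diphosphate synthase, 1.36 ± 0.15), ACAT2 (1.25 ± 0.37) and MVK (mevalonate kinase, 1.05 ± 0.29) rose. So did MSMO1 (1.50 ± 0.28), CYP51, the lanosterol demethylase (1.07 ± 0.21), and NSDHL (1.04 ± 0.21). The exception was LBR, a C14 sterol reductase that is also the lamin B receptor, at -1.79 ± 0.28. Without the libraries labelled cardiomyocyte replicate 2 and neural replicate 1, 10 of the 14 were higher and 2 lower. Among genes of uptake, VLDLR rose (2.56 ± 0.42) and the lysosomal lipase gene LIPA fell (-1.52 ± 0.24). Of 10 fatty acid synthesis genes only SCD was called (1.65 ± 0.49), and 8 were called higher without those 2 libraries. Mesendoderm markers summed to 701 to 1182 TPM on day 1 and 26.2 to 35.4 TPM on day 0, and pluripotency markers to 1327 to 1450 TPM and 1944 to 2145 TPM.

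On day 2 HMGCS1 and INSIG1 rose again while the other genes did not pass. The 2 called of 7 compare with 7.39% of genes called (3.94% higher), and their median log2 fold change was 0.39 beside 0.00 for all genes. The same 2 were called without the libraries labelled cardiomyocyte replicate 2 and neural replicate 1 (23.9% of genes, 12.3% higher). HMGCS1 stood at 1039.7, 1208 and 889 TPM on day 2 against 435, 551 and 533 TPM on day 1 (1.02 ± 0.20, adjusted p = 0.00481), with a wide gap between the days. INSIG1 stood at 176, 142 and 121 TPM against 81.6, 72.7 and 75.6 TPM (0.93 ± 0.22, adjusted p = 0.0148), also without overlap. Its call was lost without day 1 replicate 1 (0.88, adjusted p = 0.0595) or 2 (0.90, adjusted p = 0.0579), day 2 replicate 1 (0.84, adjusted p = 0.0613) or 2 (0.90, adjusted p = 0.0529), without both first replicates (0.79, adjusted p = 0.168, with 2.7% of genes called) and with limma on log2(TPM + 1) (0.91, adjusted p = 0.159). FDFT1 had 251, 231 and 232 TPM on day 2, all below the day 1 libraries, the highest by a narrow margin (-0.17 ± 0.17, adjusted p = 0.695), and SQLE had 172, 149 and 149.7 TPM, all above day 1 (0.25 ± 0.37, adjusted p = 0.818). Among the 14 other synthesis genes 3 were called, all higher (6 without those 2 libraries), namely LBR (1.70 ± 0.28), PMVK (1.12 ± 0.32) and CYP51 (0.91 ± 0.21). The cholesterol exporter gene ABCA1 was the 1 called of the 8 efflux and storage genes tested (4.07 ± 0.28).

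On day 3 much of the pathway fell relative to day 2. HMGCS1, FDFT1 and INSIG1 were called lower and none higher, with 23.7% of genes called (11.2% lower), and the median of the 7 was -0.82 beside 0.05 for all genes. SQLE and LSS were called lower too without the libraries labelled cardiomyocyte replicate 2 and neural replicate 1, giving 5 of 7 with 48.4% of genes called (23% lower). HMGCS1 stood at 262, 265 and 269 TPM on day 3 against 1039.7, 1208 and 889 TPM on day 2, a 4.49-fold lower level (-2.17 ± 0.21, adjusted p = 1.95e-06). FDFT1 stood at 79.4, 107 and 94.7 TPM against 251, 231 and 232 TPM (-1.54 ± 0.18, adjusted p = 1.37e-05). Both sets of libraries were far apart. INSIG1 stood at 109, 90.1 and 93.3 TPM against 176, 142 and 121 TPM (-0.82 ± 0.22, adjusted p = 0.0119), a call that limma on log2(TPM + 1) did not make (-0.57, adjusted p = 0.278). SQLE stood at 97.8, 86.5 and 85.2 TPM against 172, 149 and 149.7 TPM, without overlap, at -1.03 ± 0.37 (adjusted p = 0.0563) with all libraries and -1.03 ± 0.12 (adjusted p = 2.38e-07) without those 2. LSS stood at 22.7, 18.3 and 22.7 TPM against 43.8, 24.4 and 21.4 TPM, and the groups overlapped. The log2 difference of LSS was -0.71 ± 0.65 (adjusted p = 0.469) with all libraries, -0.70 ± 0.27 (adjusted p = 0.0358) without those 2 and -0.44 ± 0.72 without the first replicates of days 1 and 2. SREBF2 was at 103, 91.6 and 90.2 TPM against 91.8, 50.4 and 49.3 TPM (0.36 ± 0.65, adjusted p = 0.733, with all libraries) and was called in neither fit.

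The fall on day 3 took in most of the pathway. Of the 14 other synthesis genes 9 were called lower and none higher, with a median of -1.19. They included MVD (-1.69 ± 0.16), FDPS (-1.41 ± 0.15) and ACAT2 (-1.36 ± 0.37) in the mevalonate branch, and MSMO1 (-1.74 ± 0.28), the sterol isomerase gene EBP (-1.68 ± 0.27) and HSD17B7 (-1.65 ± 0.32) among the sterol steps. Of the 10 genes of the fatty acid list, chosen as genes under SREBP-1, the product of SREBF1, 7 fell as well. PNPLA3 (-2.05 ± 0.66), ELOVL6 (-1.72 ± 0.23) and ACSS2 (-1.46 ± 0.40) changed most. None of the 8 genes of SREBP control was called by edgeR, and 0 had an unadjusted p under 0.05. In sterol transport SCARB1, a receptor for high-density lipoprotein (-2.48 ± 0.52), and VLDLR (-1.24 ± 0.40) fell, and so did ABCA1 (-2.80 ± 0.27). Cardiac markers summed to 193 to 205 TPM on day 3 and 20.1 to 62.3 TPM on day 2, liver and endoderm markers to 1149 to 1534 TPM and 692 to 815 TPM, and neural markers to 262 to 375 TPM and 52.3 to 74.2 TPM. Fibroblast markers summed to 416 to 643 TPM on day 3 and 36.8 to 58.9 TPM on day 2, and pluripotency markers to 453 to 537 TPM and 999.9 to 1225 TPM. The part of these markers in the fall was not tested.

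**Figure D2:**
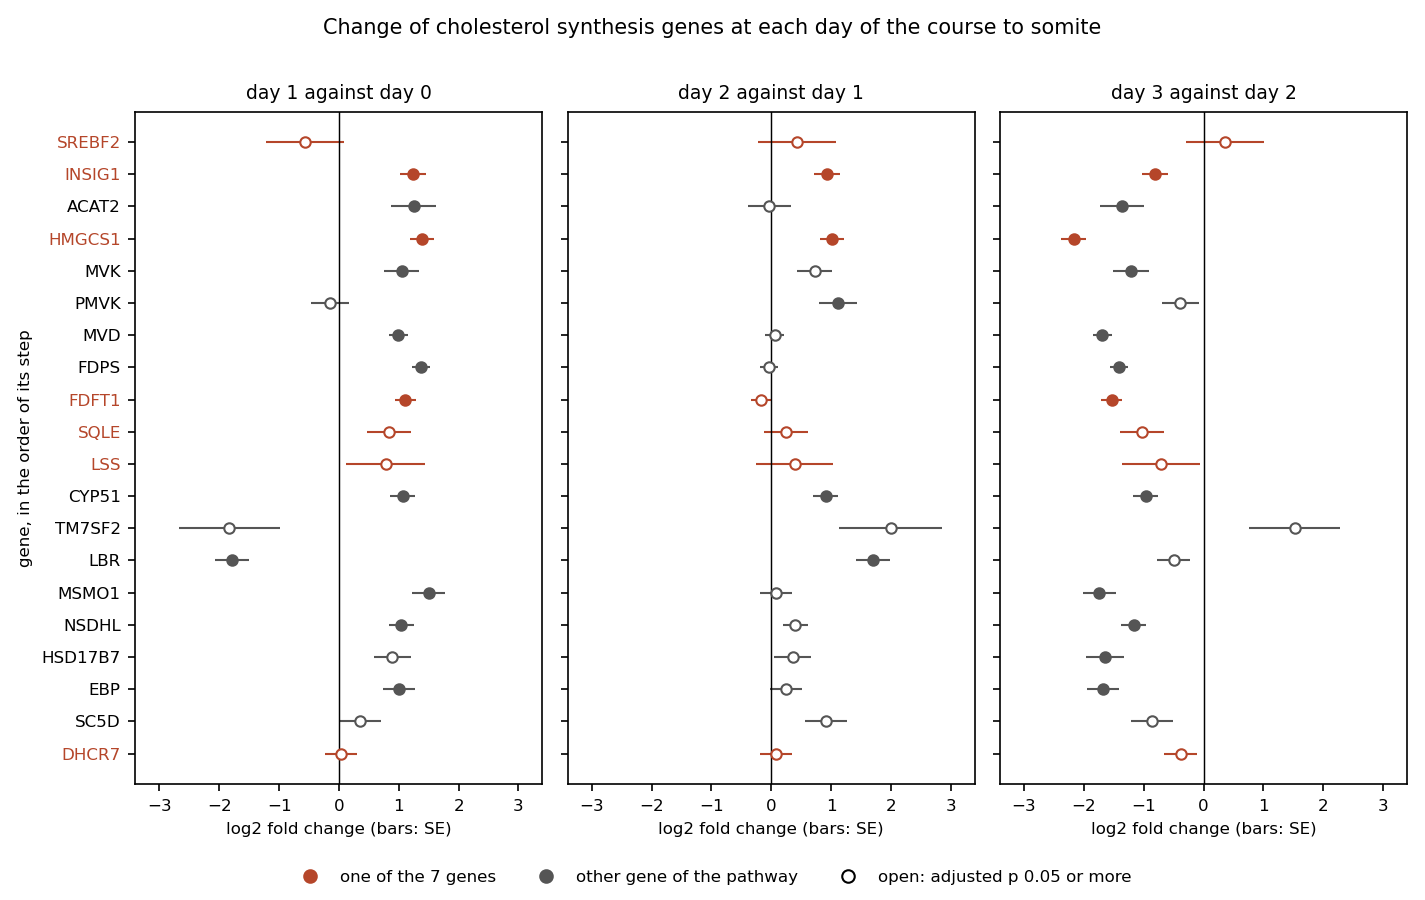
Log2 fold change of cholesterol synthesis genes (bars are the SE) at each daily step of clone 8, with the genes in the order of their step under SREBF2 and INSIG1; filled points passed the test. HMGCS1 goes up by 1.39 and 1.02 and then down by 2.17, while SREBF2 and DHCR7 pass at no step.

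Set against day 0, 2 of the 7 genes passed on day 3. INSIG1 was higher, at 109, 90.1 and 93.3 TPM against 42.2, 35.7 and 36.6 TPM (1.35 ± 0.22, adjusted p = 0.000308), and FDFT1 lower, at 79.4, 107 and 94.7 TPM against 140, 153 and 146 TPM (-0.60 ± 0.17, adjusted p = 0.0196). Neither overlapped, and 23.5% of genes were called. The FDFT1 call was lost without day 0 replicate 2 (-0.59, adjusted p = 0.0579), day 0 replicate 3 (-0.60, adjusted p = 0.0522) or day 3 replicate 1 (-0.45, adjusted p = 0.104). HMGCS1 had 262, 265 and 269 TPM on day 3 and 235, 221 and 230.2 TPM on day 0 (0.24 ± 0.20, adjusted p = 0.429). Among the 14 other synthesis genes CYP51 was higher (1.01 ± 0.21) and MVD lower (-0.64 ± 0.16), with a median of 0.09. The same calls among the 7 genes were made without the libraries labelled cardiomyocyte replicate 2 and neural replicate 1, with 49.4% of genes called.

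The comparisons of each lineage with day 0 asked what the genes do in cells further along. They share the day 0 libraries, so their directions are not independent of one another. HMGCS1, FDFT1 and INSIG1 were called higher than on day 0 in all 3 lineages. That held with all libraries and without the libraries labelled cardiomyocyte replicate 2 and neural replicate 1. These calls come from the count fit, whose scaling differs from that of TPM, and TPM was not tested without those libraries. SREBF2, LSS and SQLE depended on the lineage.

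In endothelial cells 3 of the 7 were higher and none lower, with 19.3% of genes called. HMGCS1 stood at 614, 382 and 393 TPM in endothelial cells against 235, 221 and 230.2 TPM on day 0 (1.05 ± 0.20, adjusted p = 0.00138). FDFT1 stood at 264, 209 and 216 TPM against 140, 153 and 146 TPM (0.74 ± 0.17, adjusted p = 0.00606) and INSIG1 at 115, 88.1 and 88.1 TPM against 42.2, 35.7 and 36.6 TPM (1.37 ± 0.22, adjusted p = 0.000327). Endothelial replicate 1 was the highest library for all of these, and none overlapped day 0. SQLE, at 139, 119 and 121 TPM against 92.6, 78.8 and 88.4 TPM, passed in the fit without those 2 libraries (0.56 ± 0.12, adjusted p = 0.000473), in which 45.1% of genes were called. SREBF2 stood at 64.8, 56.7 and 65.8 TPM, each below the day 0 libraries (-0.36 ± 0.65, adjusted p = 0.761, with all libraries). DHCR7 stood at 22.3, 17.4 and 17.6 TPM against 31.2, 23.6 and 26.2 TPM, also without overlap. Neither was called in these fits. With only the groups compared in the edgeR fit, where 7704 genes were called, 4 of the 7 were higher and 2 lower. The lower ones were SREBF2 (-0.37, adjusted p = 0.0260) and DHCR7 (-0.50, adjusted p = 0.00844). Among other synthesis genes CYP51 (1.15 ± 0.21) and GGPS1 (0.95 ± 0.20) were higher and MVD lower (-0.50 ± 0.16), and without those 2 libraries 5 were higher and 1 lower. ABCA1 (2.24 ± 0.26), MYLIP, whose protein marks lipoprotein receptors for degradation (2.61 ± 0.60), and the acetyl-CoA synthetase gene ACSS2 (1.95 ± 0.40) were also higher.

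In cardiomyocytes HMGCS1, FDFT1 and INSIG1 were higher than on day 0 and DHCR7 lower, and LSS and SREBF2 were lower once the doubtful libraries were left out. With all 3 libraries 3 were higher and 1 lower, with 41.7% of genes called. Without the libraries labelled cardiomyocyte replicate 2 and neural replicate 1, 3 were higher and 3 lower, with 61.7% of genes called. HMGCS1 stood at 295 and 361 TPM in cardiomyocyte replicates 1 and 3 and 599 TPM in the library labelled replicate 2, against 235, 221 and 230.2 TPM on day 0 (1.08 ± 0.20, and 1.02 ± 0.19 without those 2). FDFT1 stood at 187 and 218 TPM, and 303 TPM in replicate 2, against 140, 153 and 146 TPM (0.83 ± 0.17 and 0.85 ± 0.17). INSIG1 stood at 48.4 and 46.1 TPM, and 116 TPM in replicate 2, against 42.2, 35.7 and 36.6 TPM (0.99 ± 0.22 and 0.72 ± 0.15, adjusted p = 0.00178 and 0.000258), and limma on log2(TPM + 1) with all libraries did not call it (0.73, adjusted p = 0.112). Each was above day 0 in every library. In TPM the rises of replicates 1 and 3 over day 0 were smaller than the log2 values of the count fit. Fibroblast markers summed to 1121 and 770 TPM in cardiomyocyte replicates 1 and 3 and 20.4 TPM in the library labelled replicate 2, against 134 to 288 TPM on day 0. Pluripotency markers summed to 3.4 and 6.41 TPM, and 156 TPM in replicate 2, against 1944 to 2145 TPM on day 0. Their part in the cardiomyocyte differences was not tested.

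LSS, DHCR7 and SREBF2 were lower than on day 0 in the libraries with cardiac markers, while SQLE did not pass. SREBF2 stood at 22.4 and 15.2 TPM in cardiomyocyte replicates 1 and 3, at 176 TPM in the library labelled replicate 2 and at 104, 70.0 and 72.1 TPM on day 0. Its log2 difference was -0.27 ± 0.65 with all libraries and -1.73 ± 0.28 (adjusted p = 1.14e-05) without those 2. LSS stood at 4.13 and 2.56 TPM, and 33.4 TPM in replicate 2, against 15.8, 16.1 and 13.9 TPM (-0.27 ± 0.65, and -1.81 ± 0.36 without those 2, adjusted p = 0.000131). Leaving out cardiomyocyte replicate 2 alone was enough for both calls, at -1.72 (adjusted p = 0.0206) for SREBF2 and -1.80 (adjusted p = 0.0175) for LSS. DHCR7 stood at 6.69 and 4.11 TPM, and 14.1 TPM in replicate 2, against 31.2, 23.6 and 26.2 TPM, lower both ways (-1.61 ± 0.28 and -1.94 ± 0.27, adjusted p = 0.000225 and 1.42e-06). SQLE stood at 60.1 and 53.1 TPM, both below every day 0 library, and at 225 TPM in replicate 2, against 92.6, 78.8 and 88.4 TPM. It did not pass either way in the count fit (0.42 ± 0.37 and -0.20 ± 0.13). The library labelled neural replicate 1 held 20.1 TPM of SREBF2, 3.82 TPM of LSS, 10.2 TPM of DHCR7 and 57.9 TPM of SQLE, close to cardiomyocyte replicates 1 and 3.

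Of the 14 other synthesis genes, the fit without those 2 libraries called 4 higher and 2 lower in cardiomyocytes, among them MSMO1 (1.78 ± 0.26), TM7SF2 (1.70 ± 0.43), ACAT2 (-1.84 ± 0.15) and LBR (-1.57 ± 0.15). With all libraries it was also 4 higher and 2 lower. GGPS1 was higher as well (0.92 ± 0.21). Genes of SREBP control split into 4 higher and 4 lower of 8, with SREBF1 at -2.49 ± 0.41, SCAP at -2.08 ± 0.35 and INSIG2 at 1.90 ± 0.26. On the fatty acid list 8 of 10 genes were lower (3 with all libraries), led by PNPLA3 (-3.17 ± 0.53) and the fatty acid synthase gene FASN (-2.71 ± 0.43), with ACSS2 higher (1.48 ± 0.23). VLDLR (4.41 ± 0.17) and MYLIP (3.83 ± 0.23) were higher and LRP8, a receptor of the same family, lower (-2.73 ± 0.29).

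The neural libraries held the highest levels of several of the 7 genes. With all libraries 4 were called higher and 1 lower than on day 0, with 42.7% of genes called. Without the libraries labelled neural replicate 1 and cardiomyocyte replicate 2, 6 were higher and none lower, with 63.8% of genes called, and the median was 1.22 beside 0.00 for all genes. HMGCS1 stood at 833 and 790 TPM in neural replicates 2 and 3 and 376 TPM in the library labelled replicate 1, against 235, 221 and 230.2 TPM on day 0 (1.38 ± 0.20 and 1.46 ± 0.19 without those 2, adjusted p = 5.29e-05 and 6.16e-07). SQLE stood at 346 and 319 TPM, and 57.9 TPM in replicate 1, against 92.6, 78.8 and 88.4 TPM (1.17 ± 0.37 and 1.55 ± 0.13, adjusted p = 0.0192 and 5.57e-10). FDFT1 stood at 416 and 362 TPM, and 228 TPM in replicate 1, against 140, 153 and 146 TPM (1.01 ± 0.17 and 1.03 ± 0.17). INSIG1 stood at 174 and 136 TPM, and 54.5 TPM in replicate 1, against 42.2, 35.7 and 36.6 TPM (1.43 ± 0.22 and 1.65 ± 0.15). Replicates 2 and 3 lay far above day 0 for all of these, and the library labelled replicate 1 lay below day 0 for SQLE.

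SREBF2 stood at 267 and 229 TPM in neural replicates 2 and 3, at 20.1 TPM in the library labelled replicate 1 and at 104, 70.0 and 72.1 TPM on day 0. It did not pass with all libraries (0.73 ± 0.65, adjusted p = 0.382) and passed without those 2 (1.22 ± 0.25, adjusted p = 0.000194). LSS stood at 47.9 and 26.4 TPM, and 3.82 TPM in replicate 1, against 15.8, 16.1 and 13.9 TPM (0.44 ± 0.65, and 0.94 ± 0.30 without those 2, adjusted p = 0.00955). DHCR7 was called higher in neither fit. It stood at 29.5 and 17.0 TPM, and 10.2 TPM in replicate 1, against 31.2, 23.6 and 26.2 TPM, called lower with all libraries (-0.72 ± 0.27, adjusted p = 0.0403) and not without those 2 (-0.54 ± 0.24, adjusted p = 0.0582). Its call was lost without day 0 replicate 1 (-0.63, adjusted p = 0.126), day 0 replicate 3 (-0.81, adjusted p = 0.0541), neural replicate 1 (-0.65, adjusted p = 0.0765) or neural replicate 3 (-0.62, adjusted p = 0.118). The SQLE call with all libraries was lost without day 0 replicate 2 (1.04, adjusted p = 0.0776), day 0 replicate 3 (1.11, adjusted p = 0.0630), neural replicate 2 (0.84, adjusted p = 0.103) or neural replicate 3 (0.96, adjusted p = 0.0767). Limma on log2(TPM + 1) called neither gene (adjusted p = 0.106 for SQLE and 0.203 for DHCR7).

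Of the 14 other synthesis genes, the fit without those 2 libraries called 6 higher and 2 lower in the neural group, and with all libraries 6 higher and none lower. TM7SF2 (4.52 ± 0.40), MSMO1 (1.61 ± 0.26) and MVK (1.53 ± 0.28) were among the higher ones and EBP was lower (-0.78 ± 0.23). Of the 8 genes of sterol efflux and storage tested, 1 was higher, the exporter gene ABCG1 (5.60 ± 0.54), and 5 were lower. VLDLR (2.92 ± 0.17) and LRP8 (1.45 ± 0.23) were higher. Neural markers summed to 4159 and 4055 TPM in the same libraries against 85.8 to 120.7 TPM on day 0, and their part in these values was not tested.

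**Figure D3:**
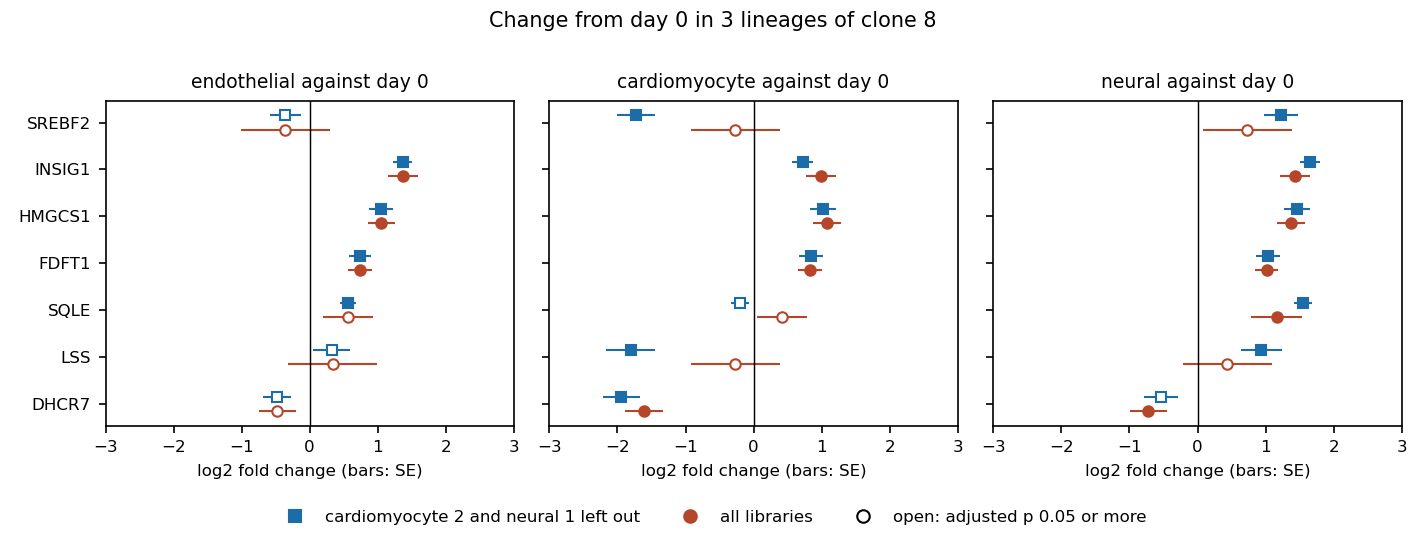
Log2 fold change from day 0 (bars are the SE) of the 7 genes in endothelial, cardiomyocyte and neural libraries of clone 8, with all libraries (circles) and without the libraries labelled cardiomyocyte replicate 2 and neural replicate 1 (squares); filled points passed the test. SREBF2 sits at -1.73 in cardiomyocytes and 1.22 in the neural group without those libraries, and its SE with all libraries is 0.65.

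Set directly against each other, cardiomyocytes and the neural group gave no call with all libraries. No gene of the 14248 passed (0% called) by edgeR, and none by DESeq2 or limma, and 753 genes had an unadjusted p under 0.05. Without the libraries labelled cardiomyocyte replicate 2 and neural replicate 1, 5 of the 7 genes were lower in cardiomyocytes and none higher, with 63.7% of genes called and a median of -1.41 beside 0.00 for all genes. SREBF2 was lower at 22.4 and 15.2 TPM in cardiomyocytes against 267 and 229 TPM in the neural group (-2.95 ± 0.30, adjusted p = 2.06e-08). That is a 7.71-fold difference in the count fit, whose scaling differs from that of TPM. LSS was lower at 4.13 and 2.56 TPM against 47.9 and 26.4 TPM (-2.74 ± 0.38, adjusted p = 1.65e-06). SQLE (-1.75 ± 0.15), DHCR7 (-1.41 ± 0.29) and INSIG1 (-0.93 ± 0.17) were lower too. HMGCS1 (-0.44 ± 0.21, adjusted p = 0.0723) and FDFT1 (-0.19 ± 0.19, adjusted p = 0.410) did not pass in the count fit. In TPM both were lower in cardiomyocytes, HMGCS1 at 295 and 361 TPM against 833 and 790 TPM. FDFT1 stood at 187 and 218 TPM against 416 and 362 TPM, and TPM was not tested without those libraries. With 2 libraries left in each group, none of the 7 genes overlapped, called or not. The share of all genes without overlap was not counted, so this lack of overlap is not a result about the 7 genes. Leaving out cardiomyocyte replicate 2 alone also gave 5 calls, with SREBF2 at -2.45 (adjusted p = 0.0143) and LSS at -2.24 (adjusted p = 0.0192). Leaving out neural replicate 1 alone gave calls of SQLE (-1.11), DHCR7 (-1.02) and INSIG1 (-0.63). Over the fits that left out 1 library, 0 to 3883 of all genes were called. Among the 14 other synthesis genes 1 was higher and 5 lower, with TM7SF2 at -2.82 ± 0.43, and the fatty acid genes gave 1 higher and 8 lower of 10.

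Endothelial cells were also set against the mean of cardiomyocytes and the neural group. DHCR7 was called higher in endothelial cells, with 33.2% of genes called, at 22.3, 17.4 and 17.6 TPM against 4.11 to 29.5 TPM in the 6 other libraries (0.69 ± 0.23, adjusted p = 0.0286). The groups overlapped. The call was lost without endothelial replicate 1 (0.61, adjusted p = 0.106), 2 (0.73, adjusted p = 0.0654) or 3 (0.74, adjusted p = 0.0617) or neural replicate 3 (0.59, adjusted p = 0.0669), and with limma on log2(TPM + 1) (0.69, adjusted p = 0.112). In the fit without the libraries labelled cardiomyocyte replicate 2 and neural replicate 1, DHCR7 (0.76 ± 0.21, adjusted p = 0.00421) and LSS (0.76 ± 0.27, adjusted p = 0.0212) were higher, with 49.4% of genes called.

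Within groups the 7 genes did not vary as one block. Each library's log2 TPM was taken relative to the mean of its group, over the 30 libraries of the 9 groups other than cardiomyocyte and neural. HMGCS1, SQLE and INSIG1 varied together, with Pearson's r of 0.82 for HMGCS1 with SQLE, 0.86 for HMGCS1 with INSIG1 and 0.92 for SQLE with INSIG1. Without the fibroblasts (26 libraries) the values were 0.60, 0.61 and 0.80. SREBF2, LSS and DHCR7 also varied together, with r of 0.83 for SREBF2 with LSS, 0.84 for SREBF2 with DHCR7 and 0.66 for LSS with DHCR7, and 0.85, 0.83 and 0.62 without fibroblasts. SREBF2 with HMGCS1 gave -0.20, and 0.03 without fibroblasts. INSIG1 was not separate from these genes once the fibroblasts were left out, with r of 0.61 with SREBF2, 0.56 with LSS and 0.55 with DHCR7, against 0.04, -0.15 and -0.09 with them. FDFT1 had no r above 0.28 with any of the others with or without the fibroblasts, but in the 15 clone 8 libraries of day 0 to endothelial it gave 0.57 with HMGCS1, beside 0.50 for HMGCS1 with INSIG1 and 0.45 for HMGCS1 with SQLE. Depth differed within some groups, most in the fibroblasts (6877298 to 36738189 counts), and also in endothelial cells (3649335 to 9727315), and these correlations are given as a description.

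Day 1 replicate 1 and day 2 replicate 1 stood out for SREBF2, LSS and DHCR7, but not for these genes alone. Chi-square over the counted genes, divided by its degrees of freedom, was 27.8 and 43.1 for day 1 replicate 1 against replicates 2 and 3. It was 6.27 between those other replicates. For day 2 replicate 1 it was 12.5 and 14.7, against 7.10 between the others. Day 1 replicate 1 exceeded its group mean by 0.89 for SREBF2, 0.90 for LSS and 0.55 for DHCR7 on the log2 scale, and day 2 replicate 1 by 0.58, 0.61 and 0.22. The same libraries were at -0.21 and 0.00 for HMGCS1. Leaving both out did not change a call of HMGCS1 or FDFT1 at any daily step.

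**Figure D4:**
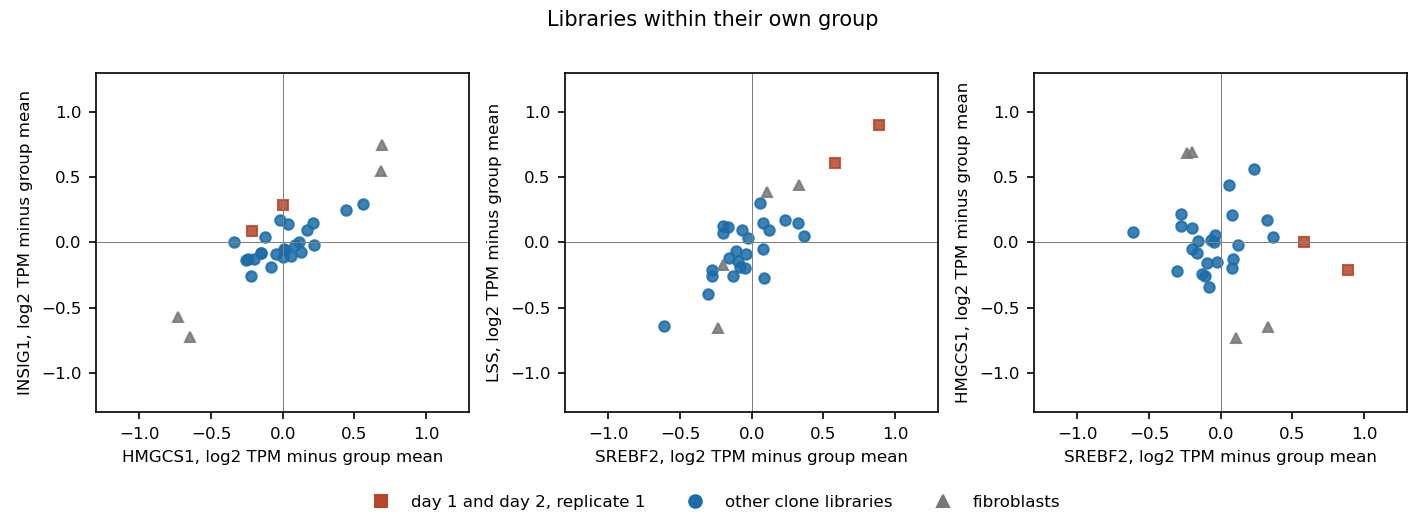
Log2 TPM of a library minus the mean of its group, for 3 pairs of genes over 30 libraries (cardiomyocyte and neural groups not drawn). HMGCS1 and INSIG1 line up (r = 0.86), SREBF2 and LSS line up (r = 0.83) with both first replicates at the top right, and SREBF2 and HMGCS1 do not (r = -0.20).

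Across the 11 group means, HMGCS1 followed FDFT1 (r = 0.88) and SQLE (r = 0.80), and SQLE followed FDFT1 (r = 0.82), while DHCR7 had no r above 0.36 with any member. LSS with INSIG1 reached 0.63 and SREBF2 with INSIG1 0.06. Among 11042 genes with a group mean of at least 10 TPM somewhere, the one most like the average profile of the 7 was MVK (r = 0.95 over 11 groups), mevalonate kinase of the same pathway. The genes at ranks 2 to 10 were on none of the pathway lists, led by SHF (0.90), CEP290 (0.90) and SEMA4C (0.88). CYP51 was the one most like INSIG1 (r = 0.89). For SQLE, FDFT1, LSS, DHCR7 and SREBF2 the closest genes were on none of the pathway lists, namely SHF for SQLE (0.94), NT5C3A for FDFT1 (0.92), FSCN1 for LSS (0.93), SRP68 for DHCR7 (0.96) and NSD2 for SREBF2 (0.91). These group means include the libraries labelled cardiomyocyte replicate 2 and neural replicate 1.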

How the data were processed

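Per the labels' protocols, the QIAGEN RNeasy Plus Mini kit gave the RNA, and LM-seq, a ligation-mediated method, the libraries. Reads were handled with bcl2fastq, Bowtie 1.2.3 and RSEM 1.2.3 on Sscrofa11.1, per the submitters' processing notes. The strand setting is not given in the sources used here. Expected counts, RSEM's estimate of the reads of each gene, were deposited by the authors in one table, and TPM in another, which is scaled by gene length and to a fixed sum per library, so depth is not kept in it.

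Both tables hold 20683 genes in 36 libraries, and 20618 genes matched RefSeq names. Of these genes, 2097 were at 0 in every library. Rounding the estimated counts to whole numbers before the tests moved library totals by 0.00095% on average. The main test was edgeR 4.0.16 (R 4.3.3), with filterByExpr at a minimum count of 10, TMM factors and the quasi-likelihood test, Benjamini-Hochberg adjusted over all genes at a threshold of 0.05. The 15 libraries of clones 1 to 3 and fibroblasts were fitted together (14660 genes), as were the 21 libraries of clone 8 (14248 genes) and all 36 (14811 genes). The procedure was tested on simulated counts with known changes.

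The alternatives were RLE size factors, no filter, DESeq2 1.42.0, limma 3.58.1 on log2(TPM + 1) and log2(TPM + 0.1), a replicate block, only the groups compared, and each library left out. Added after the data were seen were the daily, endothelial and clone 8 day 0 comparisons without the libraries labelled cardiomyocyte replicate 2 and neural replicate 1, and fits without the first replicates of days 1 and 2. No 2 libraries of a group held identical counts in 42 pairs, and chi-square divided by its degrees of freedom was at least 3.53. Counts of the 7 genes ran from 31 to 40110 per library.

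The 7 genes and the lists of other pathway genes (51 further genes) were chosen with earlier results of these data known. List genes were named by rule, with up to 3 called genes of largest change in the commoner direction and 1 in the other, per list and comparison. IDI1, CYP46A1 and CYP7B1 were not analysed here. Some genes of the pathway are not reported here and were left out of the counts over its other genes.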

Additional observations from a re-analysis of the deposited data

Results flagged for a closer look

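In clone 3, 1 of the 4 libraries stood far from the other 3 for HMGCS1, FDFT1 and INSIG1. HMGCS1 was at 369 TPM in clone 3 replicate 4, against 209, 225 and 224 TPM in the other libraries, and INSIG1 at 84.2 TPM in the same library, against 62.1, 64.8 and 64.7 TPM. FDFT1 was at 177 TPM in clone 3 replicate 1, against 146, 143 and 141 TPM. In each case the gap to the nearest library exceeded 0.829 of the group's range. Of the 21 combinations of gene and 4-library group examined, 3 did so, and chance gives about 1 in 20. The combinations share libraries, and HMGCS1 and INSIG1 were flagged in the same one. They are therefore not independent, and the count is no test of an excess.

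In 3 cases the change from a shared starting group differed between groups by edgeR's quasi-likelihood test with all libraries. The shared group cancels, so these are the direct comparisons already given and not further tests. Without the libraries labelled cardiomyocyte replicate 2 and neural replicate 1, 5 of the 7 genes differed between cardiomyocytes and the neural group. The change of SQLE from fibroblasts was larger in clone 1 than in clone 2 by 0.62 on the log2 scale, and that of INSIG1 differed by -0.90 between clone 2 and clone 3. DHCR7 differed by 0.69 between the change from day 0 in endothelial cells and the mean of the changes in cardiomyocytes and the neural group.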

How the results depend on the processing

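Of 798 values of single genes under settings other than leaving out a library, 722 kept their direction and their side of the threshold, and 695 of 756 did so when 1 library was left out. RLE size factors and the filter on low counts moved no count of called genes by more than 1.5 times. No cause of the changes below was tested.

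Counts of the 7 genes called moved as follows. Limma on TPM with a pseudocount of 1 or 0.1 called 0 of them in clone 1 against clone 2, in clone 2 against clone 3, in endothelial cells against the mean of cardiomyocytes and the neural group and in clone 8 day 0 against clones 1 to 3. It called 1 in day 2 against day 1 and 3 in the neural group against day 0. Over all genes, limma on log2(TPM + 1) called 386 higher and 1406 lower in clone 1 against clone 2. It called 846 and 206 in clone 2 against clone 3, and 2883 and 684 in clone 8 day 0 against clones 1 to 3. Endothelial cells against the other lineages gave 2821 higher and 1740 lower. Day 2 against day 1 gave 545 and 475, and the neural group against day 0 gave 3047 and 2910. DESeq2 called 2 in clone 2 against clone 3. With only the groups compared, 2 were called in clone 1 against clone 2, 4 in clone 2 against clone 3, 5 in day 3 against day 2, 4 in day 3 against day 0, 6 in endothelial cells and 3 in the neural group against day 0, 0 in endothelial cells against the other lineages and 5 in clone 8 day 0 against clones 1 to 3. When the libraries labelled cardiomyocyte replicate 2 and neural replicate 1 were left out, 5 were called in day 1 against day 0, in day 3 against day 2 and in cardiomyocytes against the neural group, 2 in endothelial cells against the other lineages and 4 in clone 8 day 0 against clones 1 to 3. Without the first replicates of days 1 and 2, 1 was called in day 2 against day 1.

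Counts over all genes moved too. DESeq2 called 2247, 1877 and 1243 genes in clone 1 against 2, clone 1 against 3 and clone 2 against 3, where edgeR called 1365, 982 and 618, and 1695 in day 2 against day 1, where edgeR called 1053. Limma on log2(TPM + 1) called 1052 in clone 2 against clone 3. With only the groups compared the counts were 2561 in clone 2 against clone 3, 4752 in day 1 against day 0, 2165 in day 2 against day 1, 6421 in day 3 against day 2, 7706 in day 3 against day 0, 7704 in endothelial cells, 3764 in cardiomyocytes and 3476 in the neural group against day 0, 1832 in endothelial cells against the other lineages and 5476 in clone 8 day 0 against clones 1 to 3. With both of those left out they were, in the same order from day 1 on, 5415, 3460, 7011, 7160, 6532, 8934, 9236 and 7162, with 9226 in cardiomyocytes against the neural group and 4888 in clone 8 day 0 against clones 1 to 3. Day 2 against day 1 gave 393 without both first replicates.

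Some differences that had not passed changed sign. With limma and a pseudocount of 1 or 0.1, FDFT1 was at 0.039 and 0.040 in clone 1 against clone 3, and HMGCS1 at 0.17 with both and DHCR7 at 0.044 and 0.045 in clone 2 against clone 3. DHCR7 in day 1 against day 0 was at -0.20 and -0.21 with limma and -0.17 without both first replicates, and SQLE in cardiomyocytes against day 0 at -0.20 without the libraries labelled cardiomyocyte replicate 2 and neural replicate 1. The log2 span of group means was 2.53 for SQLE, 2.72 for FDFT1, 3.10 for LSS, 2.31 for DHCR7 and 3.67 for SREBF2 without those libraries, and 2.07 for FDFT1 in log2 CPM. On TPM the median of all genes moved by over 0.1, to -0.16 in clone 1 against clone 2, 0.13 in clone 2 against clone 3, -0.18 in day 1 against day 0, 0.20 in day 3 against day 2, -0.11 in cardiomyocytes against day 0, 0.02 in endothelial cells against the other lineages and -0.26 in cardiomyocytes against the neural group.

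Leaving out 1 library at a time gave these ranges of genes called among the 7 and among all genes. They were 6 to 7 and 10371 to 11196 in clones 1 to 3 against fibroblasts, 1 to 1 and 643 to 1757 in clone 1 against clone 2, 0 to 0 and 435 to 1332 in clone 1 against clone 3, and 0 to 1 and 330 to 549 in clone 2 against clone 3. They were 3 to 3 and 996 to 1595 in day 1 against day 0, 1 to 2 and 526 to 693 in day 2 against day 1, 3 to 3 and 2212 to 2727 in day 3 against day 2, and 1 to 2 and 2309 to 2526 in day 3 against day 0. Against day 0 they were 3 to 3 and 1789 to 1970 in endothelial cells, 4 to 6 and 4477 to 6885 in cardiomyocytes and 3 to 4 and 4663 to 7519 in the neural group. Endothelial cells against the other lineages gave 0 to 1 and 3146 to 6076, cardiomyocytes against the neural group 0 to 5 and 0 to 3883, and clone 8 day 0 against clones 1 to 3 gave 1 to 2 and 1488 to 2913. Single values that changed sign ranged over -0.38 to 0.021 for DHCR7 in clone 1 against clone 2, -0.13 to 0.043 for FDFT1 in clone 1 against clone 3, -0.10 to 0.16 for HMGCS1 in clone 2 against clone 3, -0.18 to 0.18 for DHCR7 in day 1 against day 0, -0.060 to 0.30 for DHCR7 in day 2 against day 1 and -0.023 to 0.091 for SQLE in day 3 against day 0. In cardiomyocytes against day 0 they were -0.20 to 0.60 for SQLE, -1.80 to 0.11 for LSS and -1.72 to 0.094 for SREBF2, and in the neural group against day 0 -0.35 to 0.84 for LSS. In endothelial cells against the other lineages they were -0.38 to 0.080 for SQLE and -0.79 to 0.14 for SREBF2, and in cardiomyocytes against the neural group -2.24 to 0.055 for LSS.

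In no comparison did every same-numbered pair of libraries correlate above 0.1 in its deviations from the group means. At the daily steps all same-numbered pairs correlated positively, at 0.074 to 0.24 for day 1 with day 0. The values were 0.088 to 0.36 for day 2 with day 1 and 0.0098 to 0.19 for day 3 with day 2. Whether replicate numbers pair the libraries along the course is therefore not settled. With the replicate number as a block, SQLE was at 0.24 and not called in clones 1 to 3 against fibroblasts, and HMGCS1 at 0.021 in clone 2 against clone 3. The block changed no other call or direction among the 7 genes.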
